A study of Mus musculus with 3 samples.

Results

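FOXF1 sites in gene deserts are the shared binding sites that lay far from any protein-coding gene in the fetal mouse lung. Summits of FOXF1 peaks from 2 biological replicates were paired when each was the other's nearest and they lay at most 100 bp apart, and the site was placed midway between them. A site was kept when it lay outside every RefSeq protein-coding gene and over 100 kb from every end of such a gene. This held for 5791 of the 51013 shared sites on the nuclear chromosomes, or 11.4%. Both replicates came from whole lungs of C57BL/6 embryos at embryonic day 18.5, and each was a pool of 3 lungs from wild-type animals. They were immunoprecipitated with an antibody against FOXF1, and the peak names record calls against a control, taken here to be the study's input sample. Whole lung mixes endothelium, mesenchyme, epithelium and other cells, and no expression was measured, so neither the cell type behind a site nor the tissue label could be checked against marker genes. A positive or negative control for the antibody was not analysed here.

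FOXF1 is a forkhead transcription factor of the lung mesenchyme and of the capillary endothelium, and its loss in mice disturbs the growth of lung vessels. Gene deserts are long stretches of the genome with no protein-coding gene. Many of them hold enhancers, short stretches bound by transcription factors that can act on a gene far away along the chromosome, and such deserts are common beside genes of developmental transcription factors. Forkhead proteins bind DNA through a winged-helix domain that reads a short core often written as GTAAACA or, with another first base, as ATAAACA. Genes are named beside sites for their position alone, since the gene that a site acts on, if any, was not measured.

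Some desert sites fell into the start regions of long noncoding RNA genes, where RefSeq sequence on the build GRCm38.p6, the same assembly as mm10, could be read. Of 1740 noncoding genes whose start region lay in a desert, 46 (2.64%, exact 95% interval 1.94 to 3.51%) held a desert site in the window from 250 bases before to 50 after a start. The matching share for start regions outside deserts is not given here, so 2.64% cannot be read as high or low. The windows of 6 of these genes are printed 5′ to 3′ on the strand of the gene, with capitals for GTAAACA (read on the other strand as TGTTTAC) and for ATAAACA (read on the other strand as TGTTTAT). Those of 1700011C11Rik, 9230102K24Rik and Gm33277 are shown because they held the 3 highest sites of the 46 by mean percentile of score, and 9130015A21Rik, 4930432J09Rik and Gm41638 because a heptamer lay close to the site; all 6 were chosen after their values were seen.
1700011C11Rik, chr7:71960925-71961224, plus strand: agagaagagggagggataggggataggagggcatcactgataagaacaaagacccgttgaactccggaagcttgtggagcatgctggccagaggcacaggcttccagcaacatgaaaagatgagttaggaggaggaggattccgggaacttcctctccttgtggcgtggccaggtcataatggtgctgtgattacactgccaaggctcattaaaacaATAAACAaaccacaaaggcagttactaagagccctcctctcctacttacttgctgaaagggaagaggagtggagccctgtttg
Gm33277, chr11:34941678-34941977, minus strand: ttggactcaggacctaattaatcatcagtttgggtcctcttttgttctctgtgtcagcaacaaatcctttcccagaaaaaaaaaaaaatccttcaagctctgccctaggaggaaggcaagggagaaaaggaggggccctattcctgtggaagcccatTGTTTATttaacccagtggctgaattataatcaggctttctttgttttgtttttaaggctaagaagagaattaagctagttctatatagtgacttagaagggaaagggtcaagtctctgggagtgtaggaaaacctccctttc
9130015A21Rik, chr12:35686255-35686554, minus strand: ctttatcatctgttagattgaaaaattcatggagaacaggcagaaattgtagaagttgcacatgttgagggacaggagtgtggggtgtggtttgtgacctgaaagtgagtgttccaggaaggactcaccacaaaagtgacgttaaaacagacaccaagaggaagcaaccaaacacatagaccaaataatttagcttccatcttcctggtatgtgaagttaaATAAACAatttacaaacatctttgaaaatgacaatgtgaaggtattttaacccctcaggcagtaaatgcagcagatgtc
4930432J09Rik, chr14:104027093-104027392, minus strand: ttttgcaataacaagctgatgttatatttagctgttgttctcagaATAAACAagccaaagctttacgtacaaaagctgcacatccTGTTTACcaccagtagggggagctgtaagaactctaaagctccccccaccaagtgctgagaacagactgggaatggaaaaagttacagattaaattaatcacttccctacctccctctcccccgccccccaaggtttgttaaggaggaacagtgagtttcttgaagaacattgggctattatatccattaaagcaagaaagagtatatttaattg
Gm41638, chr17:83959508-83959807, minus strand: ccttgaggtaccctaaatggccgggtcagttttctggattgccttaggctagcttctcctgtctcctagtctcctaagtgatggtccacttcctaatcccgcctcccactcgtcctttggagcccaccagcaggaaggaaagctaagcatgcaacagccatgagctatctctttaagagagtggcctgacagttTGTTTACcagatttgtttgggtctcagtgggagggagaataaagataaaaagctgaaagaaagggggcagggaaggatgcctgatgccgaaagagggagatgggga
9230102K24Rik, chr10:110600400-110600699, plus strand: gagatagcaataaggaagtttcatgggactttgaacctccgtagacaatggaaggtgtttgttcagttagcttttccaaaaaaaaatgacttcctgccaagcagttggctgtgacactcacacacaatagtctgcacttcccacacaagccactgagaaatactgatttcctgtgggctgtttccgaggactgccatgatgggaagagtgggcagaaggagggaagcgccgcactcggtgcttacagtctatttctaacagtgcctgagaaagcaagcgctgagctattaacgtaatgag

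The window of Gm33277, a noncoding gene in the desert between Spdl1 and the guidance gene Slit3, held a site that scored 190 in replicate 1 and 83.7 in replicate 2. Scores are the authors' own values, −log10 of a p or q value at each summit; they grow with sequencing depth and so rank sites only within a replicate. Where one site is called the highest of a set, it has the highest mean of its 2 score percentiles among all shared sites. The middle of a TGTTTAT lay 5 bp from that site. The site at 9130015A21Rik, between the aryl hydrocarbon receptor gene Ahr and Agr3, had scores of 118 and 71.8, with an ATAAACA 4 bp away. At 4930432J09Rik, between the endothelin receptor gene Ednrb and the neural factor gene Pou4f1, the scores were 91 and 42.9. An ATAAACA lay 2 bp from the site, and the window held a TGTTTAC as well. At Gm41638, between Haao and the RNA-binding protein gene Zfp36l2, the scores were 72.6 and 35.5 and a TGTTTAC lay 4 bp away. The highest site of the 46, at 1700011C11Rik between Gm44812 and Mctp2, had scores of 195 and 99.6, and its nearest heptamer lay 67 bp away. The window of 9230102K24Rik, with scores of 176 and 91.6, held neither heptamer.

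Over all 46 windows, 14 (30.4%, exact interval 17.7 to 45.8%) held GTAAACA or its variant ATAAACA on either strand. Among start regions of noncoding genes in deserts without a shared site, 197 of 1694 did (11.6%, interval 10.1 to 13.3%). Among those outside deserts that held a shared site, 92 of 718 did (12.8%, interval 10.5 to 15.5%), and among the start regions of all genes, 27025 in number, 8% did. This second heptamer was added after seeing the data. With GTAAACA alone the counts were 4 of 46 (8.70%, interval 2.42 to 20.8%), 74 of 1694 (4.37%), 44 of 718 (6.13%) and 3.62% of all genes in the same order. A window with several matches counted once, the sets were not matched on base composition, and a match is a run of letters, not a measured contact. In the 13 windows with a heptamer that lay on chromosomes other than 8 and 18, the nearest heptamer was a median of 21 bp from the site (2 to 142 bp), and it lay within 50 bp in 10 of them. Sequence around the other desert sites was not used here.

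Desert sites were sparse along the chromosomes, and their share was larger among the highest-scoring sites than among all shared sites. Deserts were taken as the 1671 gaps between protein-coding genes that exceed 200 kb, each less 100 kb at both sides, and they added up to 757 Mb. They held 7.65 shared sites per Mb, against 18 per Mb in the intergenic sequence within 100 kb of genes and 28.6 per Mb in gene bodies. The density in deserts was therefore 0.267 of that in gene bodies. The densities near genes and in gene bodies count sites within 1 kb of a gene end. In the scores and shares below, those sites form a separate class. Chromosome Y made up 47.3 Mb of the desert length and held no desert site. Without it, a setting chosen after seeing the data, the ratio was 0.284. One desert site lay beyond the outermost gene of its chromosome and has no zone width. Distances to the nearest protein-coding gene end ran from 100002 to 1827366 bp, with a median of 204533 bp. At over 500 kb from any such end lay 588 of the sites (10.2%), and 92 lay over 1 Mb away.

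In replicate 1 the desert sites had scores from 5.58 to 310, with a median of 46.9, and the median site stood at percentile 53.3 of all shared sites. In replicate 2 the scores ran from 2.50 to 180, with a median of 18.4 at percentile 47.9. Medians were 46 and 17.6 for intergenic sites within 100 kb of genes and 44.5 and 17.4 inside genes, and near gene ends they were 40.3 and 27.8. The middle of the distribution in deserts thus lay near that inside genes, where the median percentiles were 50.4 and 45.9, and that of the nearer intergenic sites, with 52.1 and 46.5. Above the 90th percentile in both replicates stood 674 desert sites (11.6%, exact interval 10.8 to 12.49%), against 8.10% of all shared sites, 9.46% (8.98 to 9.97%) of intergenic sites within 100 kb of genes, 8.52% of those inside genes and 2.57% of those within 1 kb of a gene end. Among the 100 shared sites with the highest mean percentile, 23 were desert sites, and among the highest 1000 there were 203 (20.3%, interval 17.8 to 22.9%), next to their 11.4% share of all sites. These shares carry counting error only, and no test was made because sites of 1 pair of libraries are not replicates.

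Scores varied little with distance from genes, while crowding fell. At 100 to 200 kb from a gene end, the median score of 2809 sites was 47.9 in replicate 1 and 18.7 in replicate 2. The 496 sites at 500 kb to 1 Mb had medians of 45.0 and 17.6, and the 92 sites farther out had 42.2 and 19.8. The share above the 90th percentile in both replicates was 12.1%, 11.5% and 10.9% in these 3 ranges, with exact intervals of 10.9 to 13.3%, 8.82 to 14.6% and 5.34 to 19.1%. In the same ranges 39.9%, 20% and 9.78% of the sites stood in a chain of at least 3 shared sites. The medians changed little at the distance edge of the rule and fell across the pairing edge. The 416 sites at 100 to 110 kb had medians of 46.4 and 17.4, and the 463 intergenic sites at 90 to 100 kb had 45.0 and 16.9. Sites with summits 81 to 100 bp apart numbered 189, with medians of 41.2 and 14.8, and 143 pairs in deserts lay over 100 and up to 120 bp apart, with medians of 34 and 11.1.

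Most replicate 2 summits in deserts, and fewer of the more numerous replicate 1 summits, had a partner in the other replicate. Of the 12886 replicate 1 summits in deserts, 44.9% (exact interval 44.1 to 45.8%) had a partner in replicate 2, against 47.5% of all replicate 1 summits, 44.2% of those inside genes and 64.6% (63.8 to 65.4%) of those within 1 kb of gene ends. Of the 6557 replicate 2 summits in deserts, 88.3% (87.5 to 89.1%) had a partner in replicate 1, against 83.4% of all, 83.6% of those inside genes and 75.8% of those within 1 kb of gene ends. Intergenic summits within 100 kb of genes came close to deserts, with 46.5% in replicate 1 and 86.6% (86.1 to 87.2%) in replicate 2. In the highest score quintile of each list the desert shares were 96.8% (96.0 to 97.4%) and 95.8% (94.6 to 96.8%). In the lowest quintile they were 0.777% (0.469 to 1.21%) in replicate 1 and 74.7% (72.3 to 77.1%) in replicate 2. For intergenic summits within 100 kb of genes the highest quintile had 95.6% in replicate 1 and 94.6% in replicate 2. Over all summits of replicates 1 and 2 the shares were 94.2% and 91.7% in the highest quintile. In the lowest they were 2.25% and 68.5%, so the rise with score was not particular to deserts. The list of replicate 1 is longer, and no source used here gives the depth of either library, so an unpaired summit cannot be read as absence of binding in the other lungs. Paired summits in deserts lay a median of 12 bp apart, and 45.6% lay within 10 bp, close to the 13 bp and 43.9% of all shared sites. Across the 5791 sites the scores of the replicates had a Spearman's rho of 0.931, a description across sites that share both libraries and the input. It was 0.883 over all shared sites and 0.923 over intergenic sites within 100 kb of genes.

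**Figure D1:**
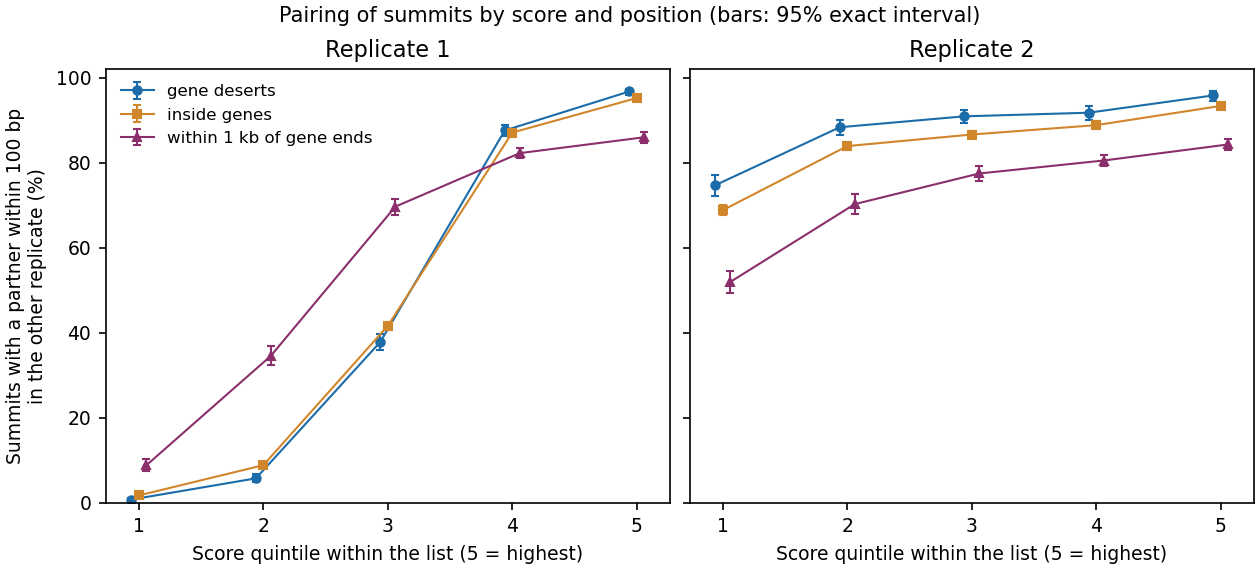
Percentage of summits with a partner within 100 bp in the other replicate (vertical axis) by score quintile within each list (horizontal axis), for summits in gene deserts, inside genes and within 1 kb of gene ends; points are shares and bars exact 95% intervals. Desert summits of replicate 1 go from 0.777% in the lowest quintile to 96.8% in the highest, and those of replicate 2 from 74.7% to 95.8%. Summits inside genes go from 1.74% to 95.2% in replicate 1 and from 68.9% to 93.4% in replicate 2.

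The highest desert site lay 100205 bp to the left of Tbx3, which encodes a T-box transcription factor of lung mesenchyme, at chromosome 5 position 119570329. It scored 309 (rank 6 of all shared sites) in replicate 1 and 177 (rank 8) in replicate 2. It lay inside the noncoding gene AW549542 and only just beyond the 100 kb limit. The desert between Tbx3 and the Mediator subunit gene Med13l held 35 sites in 0.705 Mb, or 49.6 per Mb, of which 7 stood above the 90th percentile in both replicates. Its second-highest site, at 119464667, had scores of 255 and 144.

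Another of the highest sites lay beside Sox17, the gene of an endothelial transcription factor of the SoxF group. At chromosome 1 position 4617780, 120354 bp from Sox17 and 155418 bp from the mitochondrial ribosomal gene Mrpl15, its scores were 310 and 163, the highest of any desert site in replicate 1. Within this desert of only 0.0758 Mb there were 7 sites, and the next, 4246 bp away, had scores of 186 and 75.7. The site with the highest replicate 2 score of the deserts lay at chromosome 18 position 54075895, between the casein kinase gene Csnk1g3 and the zinc finger gene Zfp608, with scores of 297 and 180.

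The other 9 of the 12 highest sites stood beside genes of varied function. A site at chromosome 12 position 54479919, between the oxygen-sensing prolyl hydroxylase gene Egln3 and Sptssa, had scores of 303 and 169. The site between Ahr and Agr3, at chromosome 12 position 35736723, had 294 and 173. Sox5, a SoxD transcription factor gene, shared its desert with the ethanolamine kinase gene Etnk1, and a site 107566 bp from Etnk1 and 512313 bp from Sox5 had 295 and 157. In the desert of Plk2, a polo-like kinase gene, and Actbl2, the site at chromosome 13 position 110683515 had its summit at the same base in both replicates, with 300 and 167. Scores of the remaining 5, in the deserts Slc16a7 to Lrig3, Palmd to Plppr4, Kif2a to Zswim6, Gk2 to Antxr2 and Btbd3 to Sptlc3, ran from 277 to 303 in replicate 1 and from 154 to 172 in replicate 2. All 12 ranked within the 66 highest shared sites of replicate 1 and the 45 highest of replicate 2, and the paired summits lay 0 to 42 bp apart.

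Sites were gathered in a minority of deserts. Of the 1671 deserts, 880 (52.7%) held at least 1 site and 791 held none, while 135 of them together held 50% of the sites. The 198 deserts with 10 or more sites covered 20.5% of the desert length and carried 61.8% of the sites. They were picked by their counts, so part of this excess follows from the choice. Width and the number of sites had a Spearman's rho of 0.417 across the 1671 deserts, a description in which the count grows with the length searched. Summit density per desert was ordered alike in both replicates (rho 0.901 across the 1671 deserts, which share the input and include many with no summit).

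**Figure D2:**
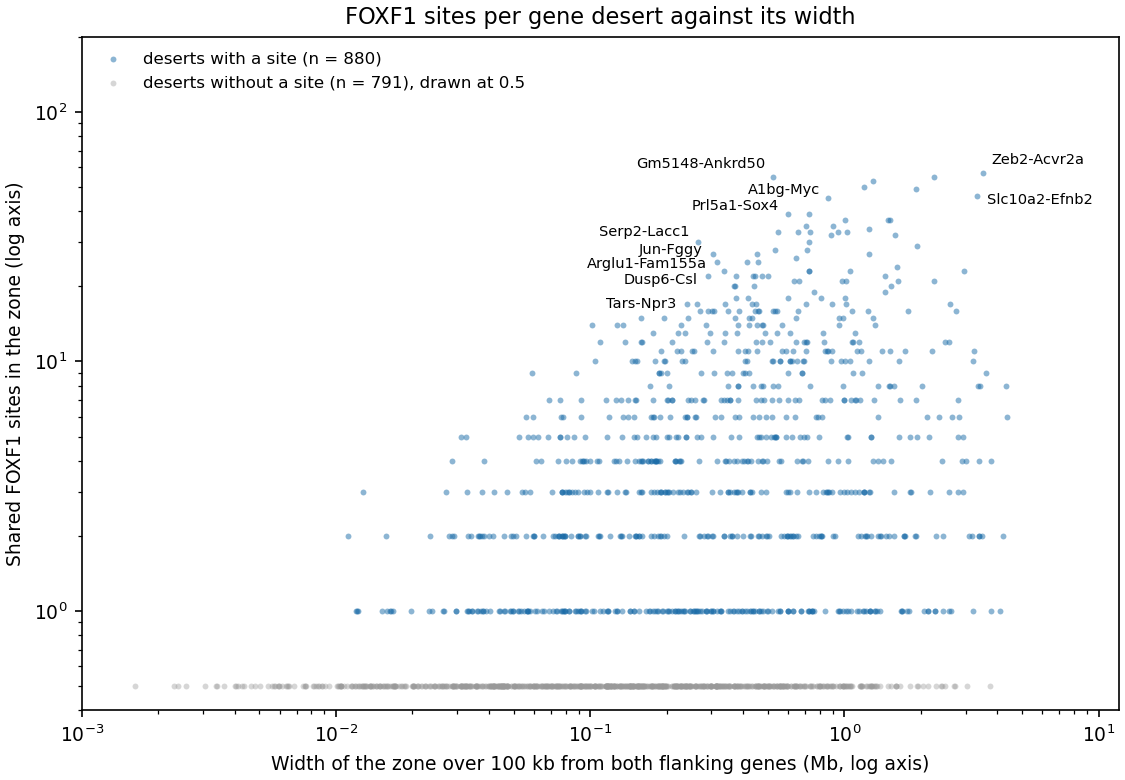
Number of shared FOXF1 sites (vertical log axis) against the width of the desert zone in Mb (horizontal log axis), 1 point per desert, with the 791 deserts that held no site drawn at 0.5. Lrrc4c to Iftap holds no site in 3.73 Mb, Zeb2 to Acvr2a 57 in 3.50 Mb, and Gm5148 to Ankrd50 holds 55 sites in 0.525 Mb.

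The desert with the most sites lay between Zeb2, whose product is a zinc finger repressor of epithelial genes, and the activin receptor gene Acvr2a on chromosome 2. It held 57 sites in a zone of 3.50 Mb, from 142 summits of replicate 1 and 73 of replicate 2. Scores of these sites ran from 11.7 to 196 with a median of 53.8 in replicate 1, and from 5.04 to 96.1 with a median of 18.8 in replicate 2. Within 500 kb of Zeb2 lay 12 of them and within 500 kb of Acvr2a lay 22. Its highest site was 122619 bp from Zeb2, with 196 and 90.5.

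Of the endothelium list described further on, Adgrl4 and Klf4 flanked deserts among the 12 with the most sites. Between Adgrl2 and Adgrl4, the latter an adhesion receptor gene of endothelium, 55 sites lay in 2.25 Mb, but 40 of them lay within 500 kb of Adgrl2 and 3 within 500 kb of Adgrl4. The highest, 359564 bp from Adgrl2, had scores of 291 and 149. Efnb2, a gene of the signalling list that encodes the arterial ephrin-B2, and the bile acid transporter gene Slc10a2 bounded 46 sites in 3.31 Mb, of which 16 lay within 500 kb of Efnb2 and 2 within 500 kb of Slc10a2. The highest of these, 254838 bp from Efnb2, had 176 and 93.1. Klf4, a Kruppel-like factor gene active in endothelium and epithelium, and the testis gene Actl7b bounded 37 sites in 1.01 Mb, with a highest site of 240 and 118. On chromosome 7, 53 sites in 1.29 Mb lay between the predicted gene Gm44812 and Mctp2, and the next named gene beyond Gm44812 is Nr2f2, a nuclear receptor gene of venous identity. The highest site there had 227 and 110.

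Another 6 of these deserts had flanking genes of varied function. The desert between A1bg and Myc, the proto-oncogene, held 45 sites in 0.864 Mb, with a highest site 618975 bp from Myc at 249 and 127. Between Prl5a1, of the placental prolactin family, and Sox4, a SoxC transcription factor gene, there were 39 sites in 0.597 Mb. Within 500 kb of Sox4 lay 33 of them and within 500 kb of Prl5a1 lay 23, ranges that overlap. The desert of Cd83 and Jarid2, a cofactor of Polycomb repression, held 39 in 0.728 Mb with a highest site of 238 and 117. Zfp608 and Gramd3 bounded 50 in 1.19 Mb, with a highest site of 262 and 134. Between Pcdh17, a protocadherin gene, and the formin gene Diaph3 there were 49 in 1.92 Mb, of which 33 lay nearer to Diaph3, 23 within 500 kb of Diaph3 and 8 within 500 kb of Pcdh17. Marcks, whose product binds actin and membranes, had 24 of the 37 sites of its desert within 500 kb, against 2 within 500 kb of Rfpl4b at the other side.

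**Figure D3:**
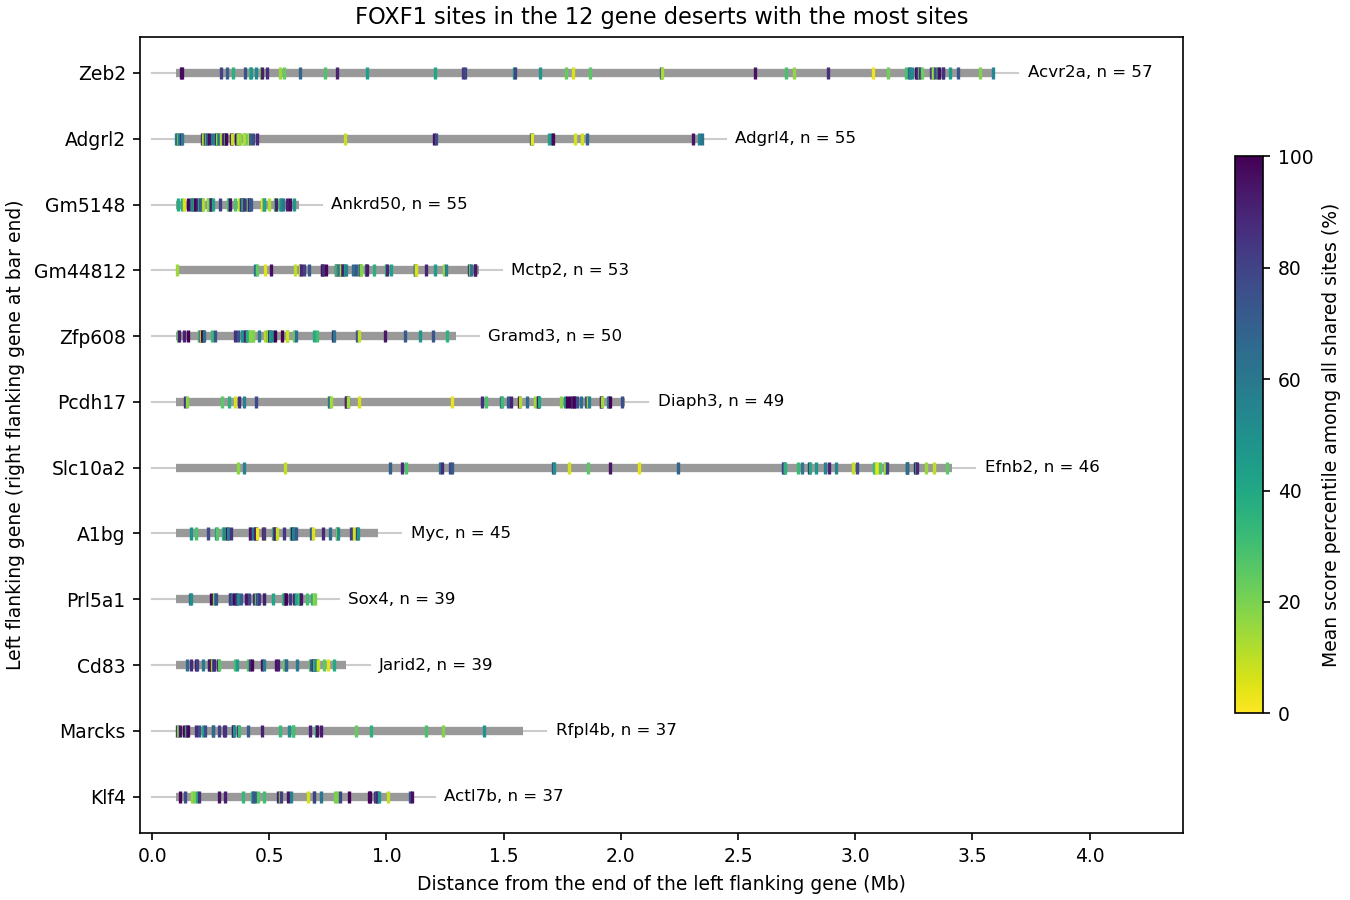
Positions of the shared FOXF1 sites in the 12 deserts with the most sites, as distance in Mb from the end of the left flanking gene (horizontal axis); each tick is a site, coloured by its mean score percentile, thick bars mark the zone over 100 kb from both genes, and the right flanking gene and site count stand at the bar end. Sites crowd beside Adgrl2, where 40 of 55 lie within 500 kb, and beside Marcks, with 24 of 37.

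Counted per Mb, among deserts with at least 5 sites and 200 kb of zone, the highest density lay between Serp2 and Lacc1 on chromosome 14, with 30 sites at 113 per Mb. Gm5148 to Ankrd50 followed with 55 sites at 105 per Mb. The next named gene beyond Gm5148 is Spry1, an inhibitor of receptor tyrosine kinase signalling, and the highest site had scores of 223 and 132. Jun, the AP-1 subunit gene, and Fggy bounded 27 sites at 88.5 per Mb, 8 of them above the 90th percentile in both replicates, with a highest site of 265 and 135. Arglu1 to Fam155a held 25 at 79.3 per Mb and a highest site of 257 and 135. Dusp6, a phosphatase gene that limits ERK signalling, and Csl bounded 22 at 75.8 per Mb, led by a site with 203 and 93.9. Tars to Npr3, the clearance receptor gene of natriuretic peptides, held 17 at 70.8 per Mb with a highest site of 237 and 129. Pabpc6 to Qk, an RNA-binding protein gene needed for embryonic vessels, held 23 at 68.3 per Mb, of which 9 stood above the 90th percentile in both replicates. Prl5a1 to Sox4 was the last of these 8, at 65.3 per Mb. The median over all 1671 deserts was 1.06 per Mb, and over the 880 with a site it was 14.8.

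Some desert sites formed long runs, and many stood alone. The nearest other shared site was a median of 8346 bp away, against 6125 bp over all shared sites, 4994.5 bp inside genes and 10764 bp within 1 kb of gene ends. Chained at gaps of at most 0.0125 Mb with all other shared sites, 2070 desert sites (35.7%, exact interval 34.5 to 37.0%) stood in a chain of at least 3, against 46.4% of all shared sites, 52.8% of those inside genes and 31.4% (30.4 to 32.4%) of those at gene ends. By median distance and chain share, desert sites were thus more spread out than sites inside genes and less so than those at gene ends. The upper quartiles of the distance were alike in deserts and at gene ends, at 26645 and 26440 bp. Among desert sites alone there were 497 such clusters, with 2006 sites and a median span of 12.8 kb, while 2411 sites (41.6%) had no other desert site within the gap. The median mean percentile was 56.5 for clustered sites and 44.4 for those standing alone. The same medians over all shared sites are not given here, so the difference cannot be called particular to deserts.

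The largest cluster lay beside Serp2, with 16 sites over 80.8 kb and scores from 6.64 to 146 in replicate 1 and from 5.48 to 76.9 in replicate 2. Clusters of 13 lay between Gm5148 and Ankrd50, over 51.1 kb with medians of 71.6 and 26.8, and between Adgrl2 and Adgrl4, over 71.4 kb with medians of 66.5 and 23.0. Clusters of 12 lay between Gm44812 and Mctp2, over 43.1 kb, and between Haao and Zfp36l2, over 34.4 kb, where the highest site had 212 and 105. Car2, a carbonic anhydrase gene, and Gm9733 flanked 11 sites over 48.1 kb, led by one with 268 and 154. Within each cluster the weakest and strongest sites differed widely in both replicates.

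Although free of protein-coding genes, deserts held long noncoding RNA genes, and 1204 desert sites (20.8%, exact interval 19.8 to 21.9%) lay inside one. Such genes covered 9.59% of the desert length, and the density inside them was 16.6 sites per Mb. Over all deserts, these genes included, it was 7.65 per Mb. Gm30382, beside Adgrl2, held 34 sites in 264 kb, of which 8 stood above the 90th percentile in both replicates. The gene 2610307P16Rik, between Prl5a1 and Sox4, held 33 in 425 kb with a highest site of 215 and 124. Gm20755, between Gm5148 and Ankrd50, held 15 in 93.9 kb, and Gm13481, between Zeb2 and Acvr2a, held 15 in 395 kb. The remaining 4 of the 8 with the most sites were A930011G23Rik with 14, Gm5095 and 2600014E21Rik with 13 each, and D5Ertd615e with 12. Pvt1, the noncoding neighbour of Myc, tied at 12 in 222 kb, with a highest site of 217 and 114, and was named after its value was seen. The table pairs noncoding genes with coordinates only, and whether they were transcribed in these lungs was not measured.

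Flanking genes were described by 6 lists, counting a gene when it formed the edge of a desert. The lists were drawn up with earlier results of these data known. Differences between them are therefore descriptions of the genes chosen and no independent evidence about a cell type. Of all 2780 flanking genes, 56.7% had at least 1 site in an adjoining desert, with a median of 1 site and 1.99 sites per Mb, in zones with a median width of 0.249 Mb. The median width was larger for each of the 6 lists, from 0.342 Mb for signalling to 1.27 Mb for neuronal genes, and both the count and the share with a site can grow with the length searched. For genes of endothelium and its regulators, 18 of 22 had a site, with a median of 10 sites and 25.4 per Mb in zones with a median of 0.410 Mb. Besides Adgrl4 and Klf4, the gene of the VEGF co-receptor Nrp1 had 33 sites at 60.4 per Mb, the Kruppel-like factor gene Klf6 had 31 over 2 deserts, and the ETS factor gene Ets1 had 20, with one of 294 and 148 lying 143665 bp away. For lung mesenchyme, 32 of 35 had a site, with a median of 8 sites and 20.9 per Mb. Besides Zeb2 and Tbx3, the nuclear factor gene Nfib had 32 sites at 43.3 per Mb, the homeobox gene Meis1 had 40 at 27.9 and the guidance gene Slit2 had 29 at 15.1.

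For lung epithelium, 11 of 16 flanking genes had a site, with a median of 3.5 sites and 10.5 per Mb. The fullest were Sox9, a factor of the distal lung bud, with 22 sites, and Id2, an inhibitor of basic helix-loop-helix factors, with 21. They were followed by Gata6 with 16, the BMP ligand gene Bmp4 with 11 and the FGF receptor gene Fgfr2 with 7. Gata6 and Bmp4 also stand on the list of lung mesenchyme. For signalling ligands, receptors and feedback, 57 of 67 had a site, with a median of 7 and 15.9 per Mb. Efnb2 led it, and the Notch ligand gene Jag1 had 33 sites with a highest of 233 and 114, the ephrin receptor gene Epha4 30 and Dusp6 22.

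For developmental transcription factors, 88 of 112 had a site, with a median of 4.5 sites and 9.38 per Mb. Myc, with deserts on both sides, had 77 sites and Sox4 had 40. For neuronal adhesion, channel and synapse genes, 77 of 105 had a site, but the median was 2 sites and 1.10 per Mb. Its fullest members were Pcdh17 with 51 sites, 49 of them in the desert shared with Diaph3, and Flrt2, the gene of a cell adhesion protein, with 28 in 4.81 Mb. Nrg3 and Slitrk1 had 17 each and Cbln4 had 15. Adgrl2, with 76 sites over its deserts, stood on neither this list nor that of endothelium. The 55 sites between Adgrl2 and Adgrl4 entered the endothelium list through Adgrl4. Of these, 40 lay within 500 kb of Adgrl2 and 3 within 500 kb of Adgrl4. The counts of a list therefore depend on which flanking gene of a desert was listed. A site is counted for both of its flanking genes, and genes can stand on several lists, so these medians are descriptions of position and were not tested against each other.

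**Figure D4:**
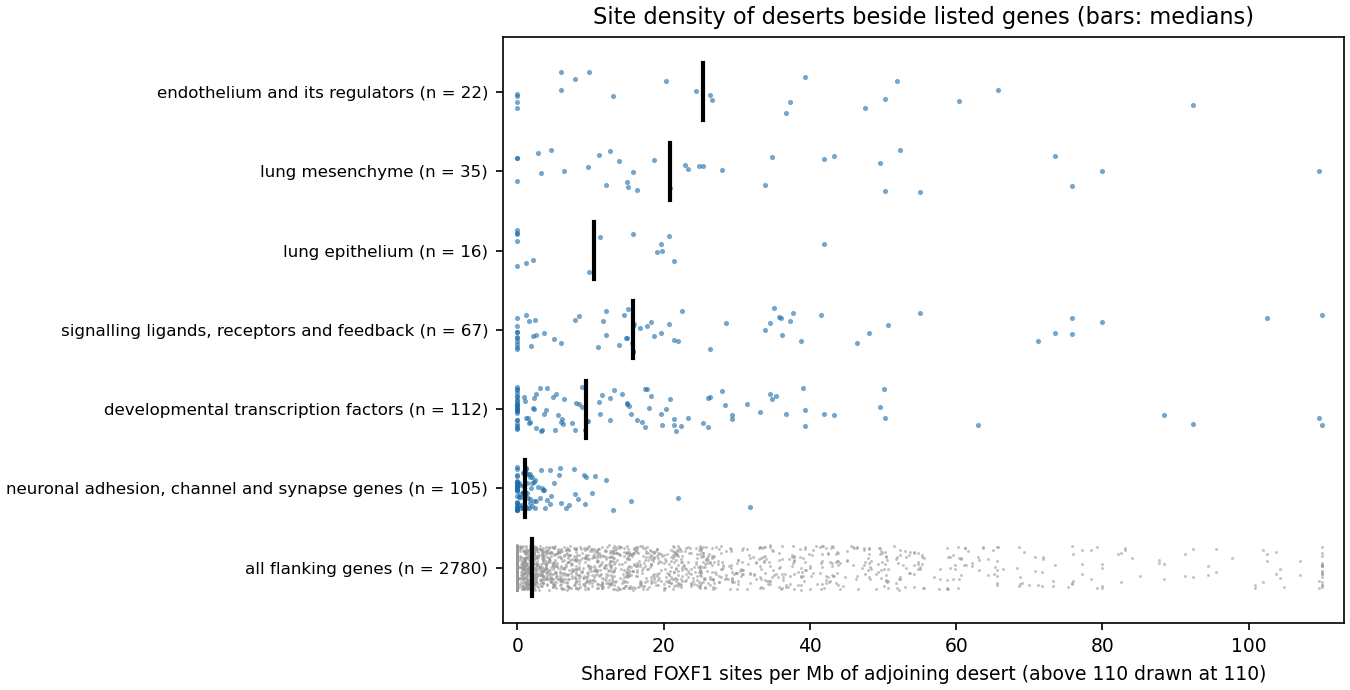
Shared FOXF1 sites per Mb of adjoining desert (horizontal axis, values above 110 drawn at 110) for each desert-flanking gene of the 6 lists and for all 2780 flanking genes (grey); points are genes and black bars medians. Medians go from 1.10 per Mb for neuronal genes to 25.4 for endothelial genes, with 1.99 for all flanking genes. The lists were drawn up with earlier results of these data known.

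Which end of a flanking gene faced the desert could be read for 4326 desert sites from the strands of the start regions. The nearest gene faced 2267 of them (52.4%, exact interval 50.9 to 53.9%) with its start of transcription. Weighted by length, 52.1% of the desert sequence is faced in this way, a share inside the interval for the sites.

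The sites farthest from genes lay in the deserts of Zeb2 and Efnb2. At chromosome 2 position 46986743, 1827366 bp from the nearest end, Acvr2a, the scores were 33.1 and 8.96. At chromosome 8 position 6814072, 1708785 bp from Slc10a2, they were 95 and 39.1, the highest of the 6 farthest sites. The remaining 4 had scores from 13.4 to 39.4 in replicate 1 and from 6.67 to 22.0 in replicate 2.

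Some wide deserts held no shared site. Of 214 deserts with a zone of at least 1 Mb, 47 held none. The widest lay between Lrrc4c, a synaptic adhesion gene, and Iftap, with 3.73 Mb, 4 summits of replicate 1 and 1 of replicate 2. Among other wide deserts without a site, Brinp3 to Pla2g4a (2.73 Mb), Prmt6 to Amy2b (2.70 Mb) and Vmn2r121 to 4932411N23Rik on chromosome X (2.48 Mb) had 0 to 2 summits of replicate 1 and none of replicate 2. Repeats and the share of each desert to which reads can be aligned were not analysed here.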

How the data were processed

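FOXF1 chromatin immunoprecipitation was followed by sequencing in 2 replicates of group FOXF1_ChIP, each a pool of 3 lungs. The authors deposited 1 list of peak summits per replicate, with a score that is −log10 of a p or q value, which of the 2 is not stated. Per the submitters' processing notes MACS2 and mm10 were used, and the peak names in the files say that each list was called against a control, taken here to be the input sample of the labels. Nothing in the sources used here names the aligner, the options, the treatment of duplicates or the depth. The lists hold 107388 and 61178 summits, of which 107378 and 61172 lay on chromosomes 1 to 19, X and Y.

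Genes came from RefSeq on GRCm38.p6. No summit outside chromosome Y lay in the first 3 Mb of a chromosome, so 18 gaps that begin at genes listed there were left out of densities. Positions are 1-based. Intervals are exact (Clopper-Pearson) at 95% and cover counting error only. Python 3.11.15, pandas 2.3.3 and scipy 1.17.1 were used, and pairing, placing and chaining were tested on simulated data. With 2 replicates of 1 group, no test between groups was possible. Members and gene lists were chosen with earlier results of these data known. Named were the 12 highest and 6 farthest sites, the 12 fullest, 8 densest and 5 widest empty deserts, the 6 largest clusters, the 8 noncoding genes with most sites and up to 5 genes per list; one of the empty deserts is not reported here. The printed start regions were chosen after their values were seen. The planned motif scan of all sites needs a genome and was not run.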

Additional observations from a re-analysis of the deposited data

How the results depend on the processing

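The number of desert sites followed the rule's distance: it was 8908 (17.5% of shared sites) at over 50 kb from gene ends, 2982 (5.85%) at over 200 kb and 588 (1.15%) at over 500 kb. The density relative to gene bodies was then 0.318, 0.201 and 0.0940, and the clusters numbered 802, 232 and 26. With all RefSeq genes as bounds, noncoding genes and pseudogenes included, 792 sites (1.55%) remained, at a relative density of 0.126 and with 60 clusters. With the 10000 highest summits of each replicate there were 1075 sites (14.3%), a relative density of 0.377 and 29 clusters, and the median percentiles were 57.2 in replicate 1 and 54.4 in replicate 2. A score of at least 10 left 313 clusters, and a chaining gap of 5 kb 244. The relative density stayed below 1 in each of these settings.

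The share of replicate 1 desert summits with a partner was 40.3% at 50 bp, 47.2% at 200 bp, 40.4% at over 500 kb, 46.1% at a score of at least 10, 76.3% with the highest summits and 43.5% with all genes. For replicate 2 it was 79.2%, 92.8%, 89.6%, 92.2%, 92.4% and 91% in the same order, and 89.6% at over 200 kb. Leaving out replicate 1 or replicate 2, so that all summits of the other list counted, gave 6557 and 12886 sites, 624 and 1434 clusters, 10.7% and 12% of the list, and relative densities of 0.247 and 0.287. Without replicate 2 the median percentile in replicate 1 was 48.8, and without replicate 1 that in replicate 2 was 48.3. Shares with a partner cannot be computed from 1 list. Chosen after seeing the data, leaving out chromosome Y gave a relative density of 0.284.

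The 18 named deserts kept their counts within 1.5 times at 50 bp, at 200 bp, at a score of at least 10 and without replicate 1, and none did without replicate 2. Of the 12 deserts with the most sites, 10 to 12 were among the 12 fullest under these settings, and 11 with the highest summits. The 12 highest sites were found under all 5 of these settings, while 5 of the 90 searches for named sites failed, all among the farthest. No paired analysis was possible because only 1 group has replicates. The causes of these shifts were not tested. The unknown depth limits what an absent summit can show.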

Other observations

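Some genes stood as islands between deserts on both sides. There were 562 such genes, of which 184 had a desert site on each side and 204 on neither. Zfp608, a zinc finger gene, had 33 sites to its left and 50 to its right, and Myc had 45 and 32. Meis1, a homeobox gene, had 23 and 17, and Btbd3 had 33 towards Jag1 and 18 towards Sptlc3. Others were lopsided: Sox4 had 39 to its left in 0.597 Mb and 1 to its right in 0.0380 Mb, and Mctp2 had 53 and 3.

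Along the chromosomes, the density in deserts went from 1.71 sites per Mb on chromosome X to 13.8 per Mb on chromosome 13, and no desert site lay on chromosome Y. Shared sites of any position numbered 1 on chromosome Y and 1066 on chromosome X, where desert sites were 8.91% of them. The absence on chromosome Y is thus not particular to deserts. No source used here gives the sex of the pooled embryos. Loci of antigen receptor segments count as deserts under the rule because their segments are not listed as protein-coding. The T cell receptor alpha locus between Gm36448 and Dad1 held 8 sites, and the immunoglobulin heavy chain locus between Adam6a and Zfp386 held none. Of the 8 sites, 3 lay at the V segments Trav15d-1-dv6d-1, Trav15n-1 and Trav15-1-dv6-1, with scores of 49.8 and 10.9, 45.9 and 9.88, and 28.7 and 8.15. By their names these V segments belong to 1 family, and the placement of these sites among its copies is uncertain.

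Some miRNA genes lay near desert sites. Within 5 kb of a site were 10 hairpins, the closest being Mir6368 at 44 bp, between Prl5a1 and Sox4, with scores of 34 and 12.1, and Mir344g at 211 bp, with 42.2 and 13.4. Mir100 and Mirlet7a-2 had the same nearest site, as did Mir410 and Mir3072. The share of hairpins near other shared sites is not given here, so the number cannot be read as an excess. Mir3072 lay 660 bp from a site with 67.5 and 21.9 in the imprinted region between Rtl1 and Dio3.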
